A study of Mus musculus with 6 samples.

Results

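The genes described here are 10 components of the Notch pathway, read by their symbols from a table of 54532 mouse genes. They are the receptors *Notch1*, *Notch2* and *Notch3*, the ligands *Dll1*, *Dll3*, *Jag1* and *Jag2*, and the target genes *Hes1*, *Hes5* and *Hey1*. Of the 17505 genes that passed a filter on low counts, 10 were these genes, so each of them was tested.

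The series holds 6 libraries of bulk cerebellar mRNA taken at postnatal day 1, of which 3 are labelled Ctrl and 3 cKO. The study asked how loss of the transcriptional regulator Tox3 changes gene expression in the newborn cerebellum. By their labels, Ctrl libraries came from *Tox3* f/f littermates and cKO libraries from *Nestin-Cre;Tox3* f/f animals, so all 6 carry floxed *Tox3* alleles and only the cKO animals carry Cre. Nestin-Cre expresses Cre recombinase in progenitors of the nervous system and thereby in the neurons and glia they form. Because no library carried the transgene without the floxed alleles, the effect of Cre and that of the deletion cannot be told apart. The sources used here do not say whether animals were pooled or which animal gave which library, so the p-values measure the spread between these libraries.

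Notch signalling passes between cells that touch. A Delta or Jagged ligand on the surface of a cell binds a Notch receptor on its neighbour, gamma-secretase then cuts the receptor, and the released intracellular domain joins Rbpj and a Mastermind protein on DNA to switch on *Hes* and *Hey* genes. The Hes and Hey proteins are repressors that hold back proneural factors, and the pathway is known in the cerebellum for keeping progenitors and radial glia undifferentiated.

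The labels could not be checked from *Tox3* itself. *Tox3* was counted at 64.3, 63.0 and 64.4 CPM (the count scaled to a normalized library total, so that libraries can be compared) in Ctrl 1, 2 and 3 and at 55.3, 63.2 and 59.2 CPM in cKO 1, 2 and 3, a log2 fold change of -0.11 (edgeR's quasi-likelihood test, Benjamini-Hochberg adjusted p = 0.252). A count over the whole gene includes exons outside a deleted part, and the directions given here rest on the labels Ctrl and cKO. The libraries did separate by label in *Atoh1*, the transcription factor that specifies granule neuron progenitors, at 30.9 to 32.6 CPM in Ctrl and 0.249 to 0.577 CPM in cKO. The libraries held 15391854 to 17178478 counts each, and 3 counts corresponded to at most 0.196 CPM. The Y-linked gene *Ddx3y* had 1101 or more counts in Ctrl 1, cKO 1 and cKO 3 (libraries with Y-linked reads) and 0 in the others, whereas *Xist* was counted at 1983 CPM or more in Ctrl 2, Ctrl 3 and cKO 2. The choroid plexus gene *Ttr* was at 6.06 CPM in cKO 2 and at 711 CPM in cKO 3, against 67.7 to 131 CPM in the Ctrl libraries.

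A gene was called lower or higher at an adjusted p under 0.01 together with a log2 fold change beyond 0.5, in cKO over Ctrl. By this rule *Hey1* and *Dll3* were lower in the cKO libraries and *Dll1* was higher. Thus 2 of 10 genes were called lower, where 3.63% of all tested genes were, and 1 of 10 was called higher, where 3.03% of all tested genes were. Calls in either direction made up 6.66% of all tested genes. The log2 fold change was above 0 for 8 of the 10 genes and its median was 0.26, beside a median of -0.01 over all tested genes. At an adjusted p under 0.01 without the fold threshold, 3 genes were higher (*Notch1*, *Notch3* and *Dll1*; background 6.55%) and 2 were lower (*Dll3* and *Hey1*; background 7.24%). The 3 Ctrl and 3 cKO values did not overlap for 5 genes that were higher in cKO (background 20.4%) and for 2 that were lower (background 20.1%), which together compares with 40.5% of all tested genes.

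**Figure D1:**
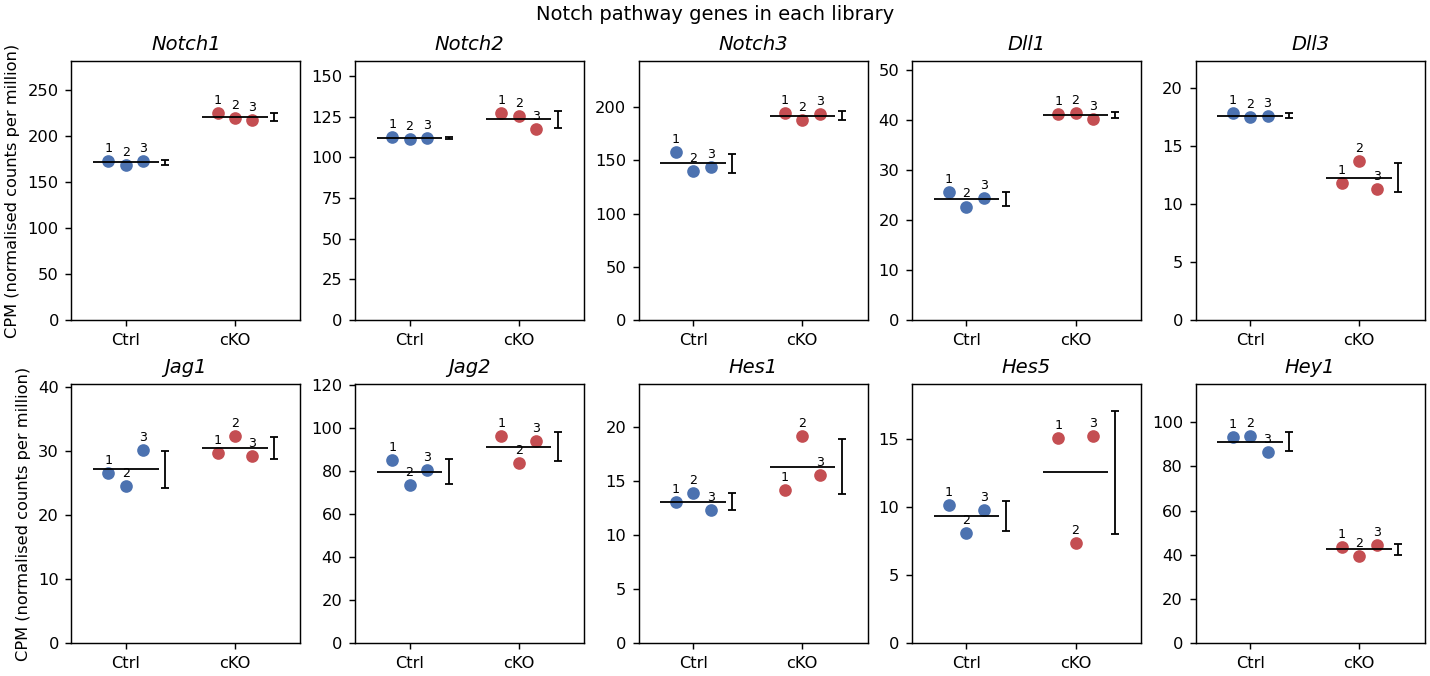
CPM of the 10 Notch pathway genes in each library. Each point is a library, numbered as in the labels, with Ctrl in blue and cKO in red, the line is the group mean and the bar beside it is the SD (n = 3). *Hey1* sits between 86.6 and 93.8 CPM in Ctrl and between 39.4 and 44.3 CPM in cKO, while *Hes5* in cKO 2 lies below every Ctrl library.

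*Hey1* encodes a repressor of the Hairy and Enhancer-of-split family that Notch switches on. It lies on the minus strand of chromosome 3 (chr3:8663359-8667256, GRCm38, ENSMUSG00000040289). It was counted at 93.5, 93.8 and 86.6 CPM in Ctrl 1, 2 and 3. In cKO 1, 2 and 3 it was counted at 43.5, 39.4 and 44.3 CPM. Every cKO library was thus far below every Ctrl library, and the cKO libraries differed little among themselves. The fall was 2.15-fold, with a log2 fold change of -1.11 (SE 0.07, adjusted p = 7.02e-06). *Hey1* held place 37 of 17505 by p-value, and it was called lower in 17 of 17 alternative analyses, with log2 fold changes between -1.14 and -1.04. Among these alternatives, the looser rule (adjusted p under 0.05, no fold threshold) uses the main fit and must keep any gene called there.

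*Hes1* and *Hes5* are the classical Notch targets of neural progenitors, and neither was called. *Hes1* (chr16:30064384-30067796, plus strand) was at 13.0, 13.9 and 12.3 CPM in Ctrl 1, 2 and 3 and at 14.2, 19.2 and 15.6 CPM in cKO 1, 2 and 3. The groups did not overlap, but cKO 2 stood above the other cKO libraries by more than the distance between the groups' nearest values. Its log2 fold change was 0.32 (SE 0.12, adjusted p = 0.0933), with a 95% interval of 0.04 to 0.60.

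*Hes5* (chr4:154960923-154962371, plus strand) was at 10.2, 8.07 and 9.82 CPM in Ctrl 1, 2 and 3 and at 15.1, 7.36 and 15.3 CPM in cKO 1, 2 and 3. Here cKO 2 was the lowest of all 6 libraries and cKO 1 and cKO 3 were the highest, so that *Hes1* and *Hes5* put cKO 2 at opposite ends. The log2 fold change was 0.43 (SE 0.24, adjusted p = 0.228), with a 95% interval of -0.11 to 0.97. The value rests on cKO 2: without that library it was 0.71 and passed both thresholds (adjusted p = 0.00352). Over all alternatives tested against a log2 fold change of 0, the adjusted p of *Hes5* ranged from 0.00352 to 0.535. The test against 0.5 itself did not call it. Among the libraries with Y-linked reads (Ctrl 1 against cKO 1 and cKO 3) the log2 difference in *Hes5* was 0.58, and among those without (Ctrl 2 and Ctrl 3 against cKO 2) it was -0.28. With the level of Y-linked genes as a covariate the log2 fold change was 0.26 (adjusted p = 0.311). *Ttr* was also lowest in cKO 2, and the part of either difference in the *Hes5* values was not tested.

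The *Hes5* start is shown because its upstream sequence carries the letters of the core that Rbpj recognizes. In the RefSeq promoter table (GRCm38.p6), 8 of the 10 genes had an entry, and *Dll1* had 2 starts. *Hes1* and *Hey1* had none. The 250 bases before each start were searched on both strands for GTGGGAA (the Rbpj core), CAGCTG and CAGATG (E-boxes, bound by proneural factors) and CACNAG (the N-box, bound by Hes proteins), and no matches overlapped each other. GTGGGAA was found only in *Hes5* among these 9 windows, at 83 to 77 bases before the start and, on the opposite strand, at 226 to 220 bases before it. It occurs in 5.42% of 32851 mouse promoter windows of that length. The window of *Hes5*, chr4:154960673-154960922 on the plus strand, is printed with both matches in capitals.

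Hes5: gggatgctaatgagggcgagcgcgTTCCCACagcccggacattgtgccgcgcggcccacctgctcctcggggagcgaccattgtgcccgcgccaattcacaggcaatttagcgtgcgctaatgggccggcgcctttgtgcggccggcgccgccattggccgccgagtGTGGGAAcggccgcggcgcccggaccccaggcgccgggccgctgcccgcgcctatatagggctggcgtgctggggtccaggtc

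Of these 250 bases, 153 are also an exon of *Gm20421*, a transcript of the opposite strand that had 2 to 8 counts per library.

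Among the ligands, *Dll1* and *Dll3* were called in opposite directions and neither Jagged gene was called. *Dll1* encodes a Delta ligand that activates Notch on neighbouring cells. It was at 25.6, 22.7 and 24.3 CPM in Ctrl 1, 2 and 3 and at 41.1, 41.4 and 40.2 CPM in cKO 1, 2 and 3. The cKO libraries lay close together and all were well above the Ctrl libraries. The rise was 1.69-fold, with a log2 fold change of 0.76 (SE 0.08, adjusted p = 1.32e-04). The call held in 16 of 17 alternatives and was lost in a test against a log2 fold change of 0.5 itself (adjusted p = 0.0438). *Dll1* (chr17:15367354-15376872, minus strand) overlaps the lincRNA *A930024N18Rik* of the plus strand, which had 46, 50 and 39 counts in Ctrl 1, 2 and 3 and 72, 75 and 67 in cKO 1, 2 and 3. *Dll1* itself had 348 to 393 counts in Ctrl and 635 to 713 in cKO, and, as no source used here says whether reads were counted by strand, those of the shared bases cannot be told apart.

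*Dll3* encodes a divergent Delta that acts mainly inside the cell that makes it and does not activate Notch on neighbours. It was at 17.8, 17.4 and 17.5 CPM in Ctrl 1, 2 and 3 and at 11.8, 13.7 and 11.3 CPM in cKO 1, 2 and 3. The groups did not overlap, and the spread was wider in cKO (SD 1.26) than in Ctrl (SD 0.205). The log2 fold change of -0.52 (SE 0.10, adjusted p = 0.00467) lay just beyond the fold threshold. The direction held in 17 of 17 alternatives, but the call was lost in 7 of them. These include each fit without Ctrl 1, Ctrl 2, Ctrl 3, cKO 1 or cKO 3, where the log2 fold change was between -0.53 and -0.47 and the adjusted p between 0.0165 and 0.0235. Over all alternatives tested against a log2 fold change of 0, the adjusted p ran from 8.42e-04 to 0.0235. The test against 0.5 itself also lost the call.

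*Jag1*, a Jagged ligand known to act on *Notch2* in granule neuron progenitors, was at 26.6, 24.5 and 30.2 CPM in Ctrl 1, 2 and 3 and at 29.8, 32.4 and 29.3 CPM in cKO 1, 2 and 3. *Jag2*, the other Jagged ligand, was at 85.2, 73.4 and 80.7 CPM in Ctrl 1, 2 and 3 and at 96.3, 83.7 and 93.9 CPM in cKO 1, 2 and 3. For both genes the groups overlapped. The log2 fold change of *Jag1* was 0.17 (SE 0.09, adjusted p = 0.234), with a 95% interval of -0.05 to 0.38. That of *Jag2* was 0.20 (SE 0.07, adjusted p = 0.0795), with a 95% interval of 0.03 to 0.36.

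The ligand promoters are shown because *Dll1*, *Dll3* and *Jag1* share an E-box, CAGCTG, in their windows, although their transcripts were called higher, called lower and not called. CAGCTG occurs in 13.0% of the 32851 windows, and CAGATG (14.4%) was in none of the 9. In *Dll1* the match lies 132 to 127 bases before the upstream of its 2 starts, in chr17:15376933-15377182 on the minus strand, a window that is wholly within an exon of *A930024N18Rik* on the other strand. In *Dll3* it lies 7 to 2 bases before the start, in chr7:28301786-28301815 on the minus strand. In *Jag1* it lies 82 to 77 bases before the start, in chr2:137116585-137116614 on the minus strand. Both printed stretches lie within annotated exons of *Dll3* and *Jag1* themselves, as do all 250 bases of the *Dll3* window and 124 of the *Jag1* window. The whole window is printed for *Dll1* and 30 bases for the other genes, with the E-box in capitals.

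Dll1: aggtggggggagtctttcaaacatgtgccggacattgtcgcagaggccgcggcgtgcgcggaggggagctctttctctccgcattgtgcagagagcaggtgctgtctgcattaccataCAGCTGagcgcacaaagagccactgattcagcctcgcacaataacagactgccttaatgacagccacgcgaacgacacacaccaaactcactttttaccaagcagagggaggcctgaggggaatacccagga

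Dll3: aaatataagactccggcatccagCAGCTGc

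Jag1: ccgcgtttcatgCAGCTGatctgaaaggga

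All 3 receptors stood higher in every cKO library than in any Ctrl library, by amounts under the fold threshold. *Notch1*, the receptor that maintains neural progenitors in many parts of the brain, was at 173, 168 and 172 CPM in Ctrl 1, 2 and 3 and at 225, 219 and 217 CPM in cKO 1, 2 and 3. *Notch2*, known as the receptor of proliferating granule neuron progenitors, was at 113, 111 and 112 CPM in Ctrl 1, 2 and 3 and at 127, 126 and 117 CPM in cKO 1, 2 and 3. *Notch3*, a receptor of radial glia and of the mural cells of vessels, was at 158, 140 and 144 CPM in Ctrl 1, 2 and 3 and at 195, 188 and 194 CPM in cKO 1, 2 and 3. The gap between the groups was wide for *Notch1* and *Notch3* and narrow for *Notch2*.

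The log2 fold change was 0.36 for *Notch1* (SE 0.04, adjusted p = 2.85e-04), a 1.29-fold difference. It was 0.39 for *Notch3* (SE 0.05, adjusted p = 7.93e-04), a 1.31-fold difference. For *Notch2* it was 0.14 (SE 0.05, adjusted p = 0.0647), a 1.10-fold difference. None of the 3 was called by edgeR or by DESeq2, while 3 of 3 had an unadjusted p under 0.05. Such values were common over all genes. *Nrarp*, one of the other pathway genes read below, held place 6528 of 17505 by p-value with an unadjusted p of 0.0509 in edgeR's test. The 95% interval of *Notch1* ended at 0.46 and that of *Notch2* at 0.26, below the fold threshold of 0.5, and that of *Notch3* ended at 0.51. The windows before the starts of *Notch1*, *Notch2* and *Notch3* each held the N-box CACNAG, which 36.7% of the 32851 windows hold. *Notch1* (chr2:26457903-26516663, minus strand), *Notch2* (chr3:98013527-98150361, plus strand) and *Notch3* (chr17:32120820-32166880, minus strand) overlap transcripts with few reads: *0610009E02Rik*, *Gm13568* and *Mir6996*; *Gm42820* and *Gm42819*; and *Gm17276*, with at most 20 counts in any library. *Jag2* likewise overlaps *Mir6941*, which had at most 11.

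Levels were compared between genes on the deposited FPKM scale (fragments scaled by gene length and library total), which takes gene length into account. In Ctrl, *Hey1* had the highest level, 27.7 ± 1.24 FPKM (SD, n = 3), followed by *Notch3* at 18.1 ± 1.13 FPKM. *Notch1* (11.9 FPKM) and *Jag2* (11.3 FPKM) followed with overlapping ranges, and then *Notch2* (10.3 FPKM). Below them came *Hes5* (6.80 FPKM), *Hes1* (6.36 FPKM) and *Dll3* (6.12 FPKM), whose neighbours in the order overlapped, then *Dll1* (5.68 FPKM) and *Jag1* (4.62 FPKM). In cKO the order began with *Notch3* (23.8 ± 0.603 FPKM) and *Notch1* (15.4 ± 0.333 FPKM), and *Hey1* (12.9 ± 0.859 FPKM) stood beside *Jag2* (13.0 ± 1.03 FPKM) with overlapping ranges. *Notch2* (11.4 FPKM) followed, then *Dll1* (9.65 FPKM), *Hes5* (9.19 FPKM) and *Hes1* (7.96 FPKM), whose neighbours in the order overlapped, then *Jag1* (5.2 FPKM) and *Dll3* (4.28 FPKM). The highest level among the 10 genes was thus that of a target in Ctrl and that of a receptor in cKO, and *Dll1* and *Dll3* exchanged order.

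The make-up of each role group within a library does not depend on scaling between libraries. *Hey1* took 67.8 ± 1.36% (SD, n = 3) of the summed FPKM of the 3 targets in Ctrl and 43.1 ± 1.62% in cKO. The share of *Hes1* was 15.1%, 16.4% and 15.2% in Ctrl 1, 2 and 3 and 22.2%, 35.0% and 23.6% in cKO 1, 2 and 3. Every cKO share of *Hes1* was above every Ctrl share, and cKO 2 was the highest. The difference was 11.4 percentage points (two-sided exact permutation test, p = 0.1, the smallest that 3 against 3 libraries allow), and 7.34 points without cKO 2. *Hey1* is part of the sum, so its fall from 27.7 to 12.9 FPKM by itself raises the share of *Hes1*, whose own level was 6.36 FPKM in Ctrl and 7.96 FPKM in cKO and was not called. Among the ligands, *Dll1* took 20.5 ± 0.378% in Ctrl and 30 ± 0.427% in cKO, and *Dll3* took 22.1 ± 1.07% and 13.3 ± 1.41%. The share of *Jag1* was 16.6 ± 1.30% in Ctrl and 16.2 ± 0.952% in cKO (two-sided exact permutation test, p = 0.6), and it was 0.308 points higher in cKO without Ctrl 3. Among the receptors, *Notch1* took 29.6 ± 0.660% in Ctrl and 30.5 ± 0.129% in cKO (two-sided exact permutation test, p = 0.1). *Notch2* took 25.5 ± 0.680% in Ctrl and 22.5 ± 0.773% in cKO, without overlap. *Notch3* took 44.9 ± 1.32% and 47.0 ± 0.901%, with overlap (46.4% in Ctrl 1 and 46.3% in cKO 2).

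**Figure D2:**
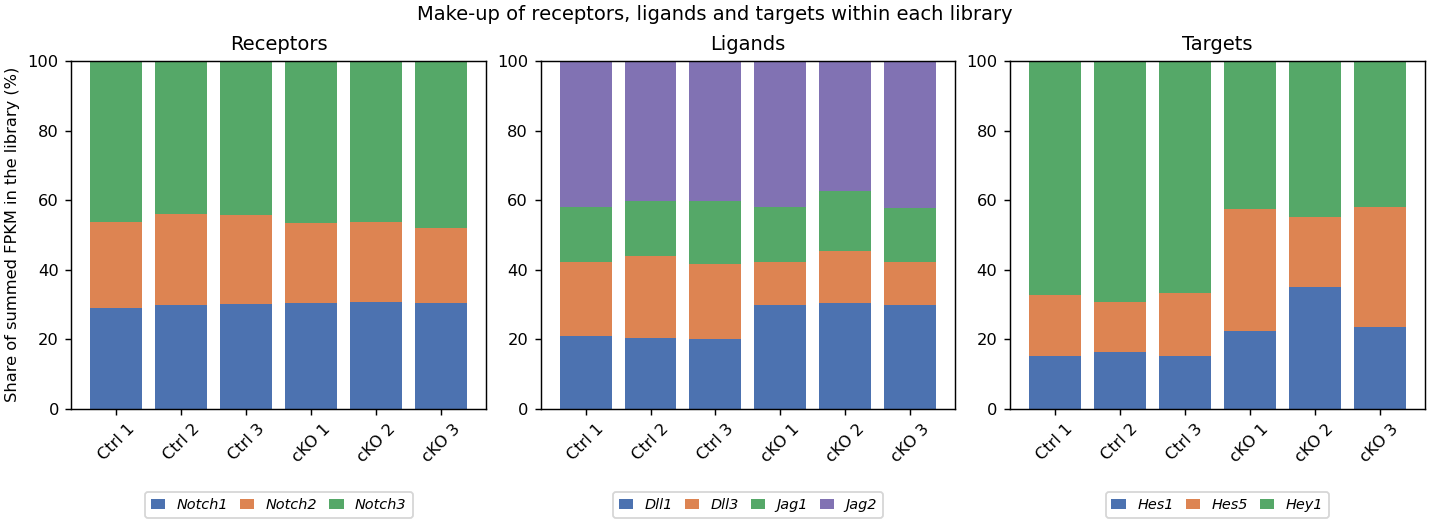
Share of each gene in the summed FPKM of its role group, in percent, as stacked bars that each stand for 1 library. Among the targets *Hey1* takes 66.7 to 69.3% in Ctrl and 41.9 to 44.9% in cKO, and among the ligands *Dll1* takes 20.1 to 20.8% in Ctrl and 29.7 to 30.5% in cKO.

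The genes whose pattern over the 6 libraries was nearest to the leading member of each role group were found among 14307 protein-coding genes. The measure was the root mean square difference of log2 CPM, each gene taken relative to its Ctrl mean. A small distance on this measure largely reflects a like fold change, so it adds little beyond the group difference. For the genes nearest to *Hey1* the log2 fold changes were -1.15 (*Lrig3*), -1.05 (*Ccnd1*) and -1.08 (*Peli2*). Nearest to *Hey1* were *Lrig3* (0.050), *Ccnd1* (0.0524), a cyclin of the entry into S phase, and *Peli2* (0.0621). Nearest to *Dll1* were *Naaa* (0.0357), *Id3* (0.0383), an inhibitor of bHLH factors, and *Zfp703* (0.0472). Nearest to *Notch1* were *Psph* (0.0144), an enzyme of serine synthesis, *Abat* (0.0198), which breaks down GABA, and *1810037I17Rik* (0.0202). The members' own root mean square distance from their Ctrl mean was 0.779 for *Hey1*, 0.532 for *Dll1* and 0.258 for *Notch1*. The levels of *Ccnd1*, which is also among the granule neuron progenitor markers used here, were 163, 164 and 159 CPM in Ctrl 1, 2 and 3 and 77.3, 74.5 and 83.0 CPM in cKO 1, 2 and 3. *Lrig3* was at 42.6 to 43.6 CPM in Ctrl and 18.1 to 20.6 CPM in cKO, and *Peli2* at 195 to 214 CPM and 91.4 to 103 CPM.

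Other genes of the pathway were read from a list of 53 by role, of which 51 were tested. Of these, 4 were called lower (*Mfng*, *Maml3*, *Tle2* and *Hes6*) and 2 higher (*Lfng* and *Dtx4*), where 3.63% and 3.03% of all tested genes were, and the median log2 fold change of the list was -0.07. Among them, 31 had a log2 fold change below 0 and 20 above 0. DESeq2 called the same numbers, 4 and 2.

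The fringe genes moved apart. Fringe enzymes add a sugar to Notch and thereby shift which ligands it answers to. *Lfng* was at 59.1, 55.6 and 53.7 CPM in Ctrl 1, 2 and 3 and at 92.6, 90.1 and 95.8 CPM in cKO 1, 2 and 3, a log2 fold change of 0.73 (SE 0.06, adjusted p = 3.37e-05). *Mfng* was at 20.4, 21.0 and 24.4 CPM in Ctrl 1, 2 and 3 and at 13.3, 10.2 and 11.2 CPM in cKO 1, 2 and 3, a log2 fold change of -0.92 (SE 0.12, adjusted p = 6.01e-04). Neither gene's groups overlapped, and *Rfng*, the remaining fringe, had a log2 fold change of 0.12 (adjusted p = 0.167).

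In the nucleus, 13 of 14 genes of the Rbpj complex and its co-repressors had a log2 fold change below 0, with a median of -0.22 beside -0.01 over all tested genes, and 2 were called. *Maml3*, a Mastermind co-activator, was at 66.4, 61.4 and 71.8 CPM in Ctrl 1, 2 and 3 and at 45.4, 44.2 and 41.2 CPM in cKO 1, 2 and 3 (log2 fold change -0.61, SE 0.08, adjusted p = 4.22e-04). *Tle2*, a Groucho co-repressor, was at 36.3, 33.3 and 32.8 CPM in Ctrl 1, 2 and 3 and at 23.4, 20.5 and 22.9 CPM in cKO 1, 2 and 3 (log2 fold change -0.61, SE 0.09, adjusted p = 7.92e-04). In both genes every cKO library lay below every Ctrl library. *Rbpj*, the DNA-binding subunit, had a log2 fold change of -0.38 (SE 0.07, adjusted p = 0.00354), under the fold threshold, with 64.1 to 74.7 CPM in Ctrl and 52.5 to 55.7 CPM in cKO.

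Of the further Hes and Hey genes, *Hes6*, which opposes Hes1 and promotes neuronal differentiation, was called lower. It was at 75.6, 73.0 and 73.3 CPM in Ctrl 1, 2 and 3 and at 54.2, 53.0 and 48.9 CPM in cKO 1, 2 and 3 (log2 fold change -0.51, SE 0.06, adjusted p = 3.54e-04). The low gene *Hes7* was at 1.17 to 1.76 CPM in Ctrl and 2.43 to 4.10 CPM in cKO (log2 fold change 1.04, adjusted p = 0.0250), and *Hey2* at 4.05 to 5.01 and 5.48 to 7.04 CPM (0.48, adjusted p = 0.0672). *Heyl* overlapped between groups, at 8.35 to 10.6 CPM in Ctrl and 8.36 to 8.72 CPM in cKO. *Hes2* and *Hes3* did not pass the filter, and *Hes2* had at most 3 counts in every library.

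Among regulators of receptor turnover, *Dtx4*, a Deltex ubiquitin ligase, was called higher, at 148, 132 and 143 CPM in Ctrl 1, 2 and 3 and 200, 202 and 197 CPM in cKO 1, 2 and 3 (log2 fold change 0.50, SE 0.05, adjusted p = 1.66e-04). Its fold was at the edge of the threshold. *Dtx1*, another Deltex, had a log2 fold change of 0.33 (adjusted p = 0.00347), and *Itch*, a ubiquitin ligase of Notch, had -0.31 (adjusted p = 0.0126). Of the further ligands and receptors, none was called by edgeR or DESeq2, and 3 of 5 had an unadjusted p under 0.05, which was common over all genes, as given above for *Nrarp*. *Dner*, a Delta-like protein of Purkinje cells, had a log2 fold change of 0.37 (adjusted p = 2.92e-04), *Dll4*, a Delta of endothelium, had 0.40 (adjusted p = 0.0143), and *Dlk2* had 0.44 (adjusted p = 0.0465).

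No gene of receptor cleavage was called by edgeR or by DESeq2, and 4 of 10 had an unadjusted p under 0.05, with the background given for *Nrarp*. The median of these 10 was -0.02, and their log2 fold changes ran from -0.23 to 0.43. The gamma-secretase subunits *Ncstn* (-0.16, adjusted p = 0.0573), *Psenen* (-0.23, adjusted p = 0.0436) and *Psen2* (0.35, adjusted p = 0.0502) led them by p-value. Of the 4 genes of ligand endocytosis none was called by either tool, and 3 had an unadjusted p under 0.05, with the same background. *Neurl1b* had a log2 fold change of -0.47 (adjusted p = 0.00654), *Mib2* had 0.39 (adjusted p = 0.00668) and *Neurl1a* had 0.18 (adjusted p = 0.0581). *Mib1*, the main ubiquitin ligase of Notch ligands, was at 152, 200 and 199 CPM in Ctrl 1, 2 and 3 and at 141, 199 and 143 CPM in cKO 1, 2 and 3, so its 3 lower values are those of the libraries with Y-linked reads.

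**Figure D3:**
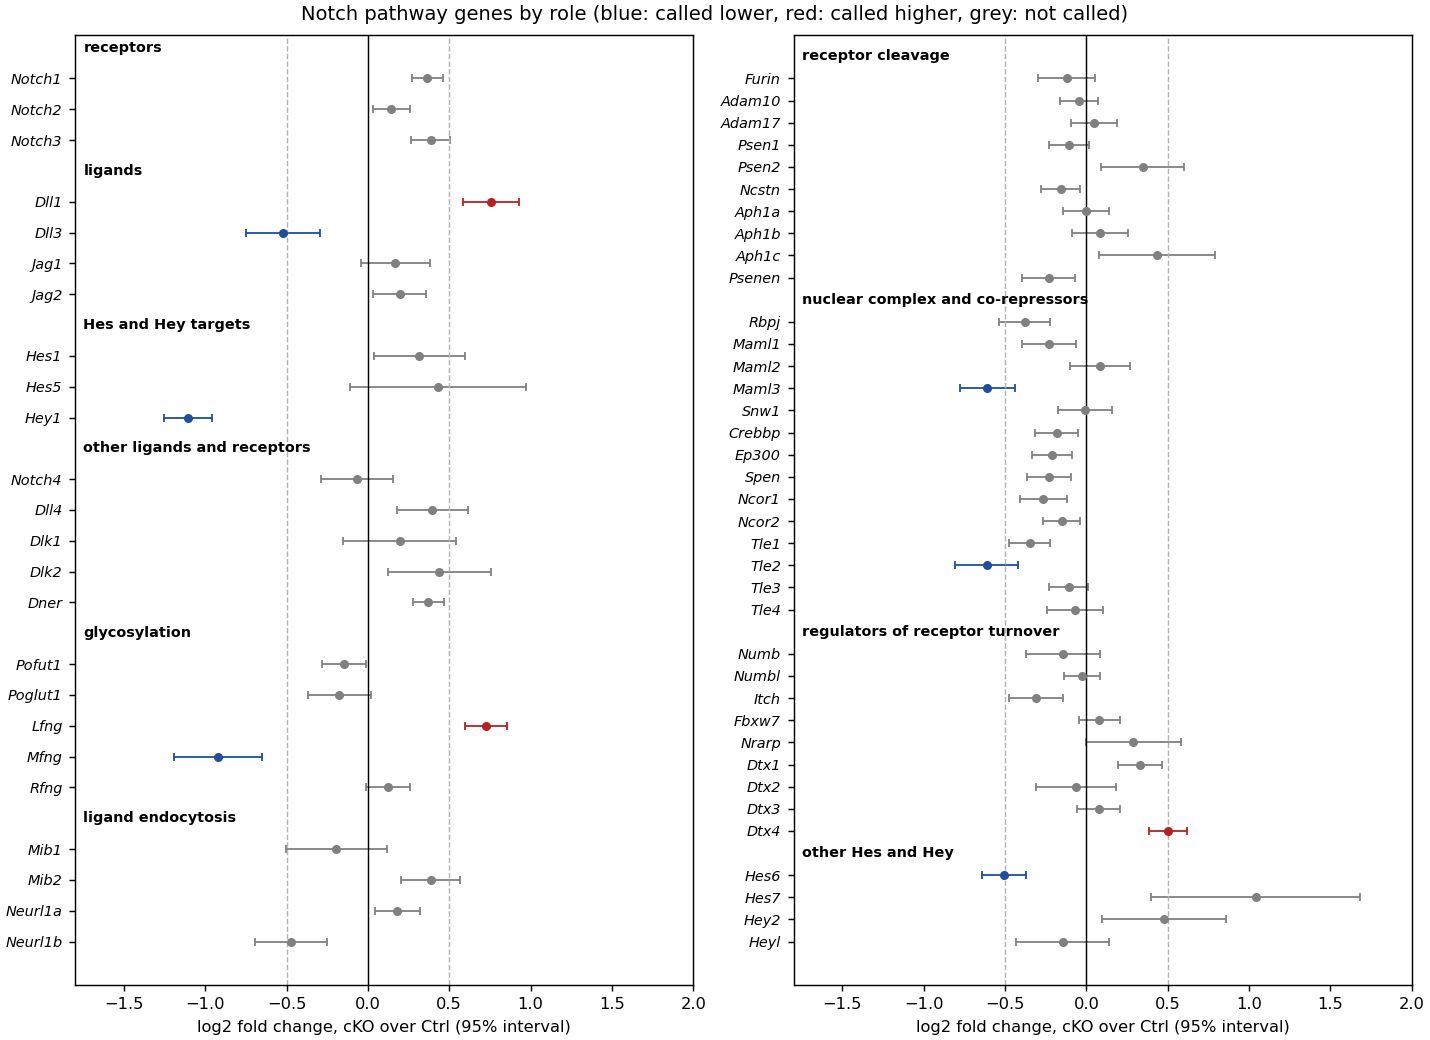
Log2 fold change in cKO over Ctrl of the 10 Notch genes and the 51 tested genes of the wider pathway, by role, with 95% intervals (n = 3 libraries per group). Blue points were called lower and red points higher, and the dashed lines mark the fold threshold of 0.5. Of the called genes, *Hey1*, *Mfng*, *Maml3*, *Tle2*, *Dll3* and *Hes6* lie on the left and *Dll1*, *Lfng* and *Dtx4* on the right. The point farthest to the right is the low gene *Hes7*, which was not called (1.04, 95% interval 0.40 to 1.68). The genes of receptor cleavage have a median of -0.02 and run from -0.23 to 0.43.

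Notch genes differ between the cell types of the cerebellum, and in bulk RNA fewer cells of a type and less RNA per cell cannot be told apart. Of 8 granule neuron progenitor markers, 8 were called lower, with a summed level of 1316 to 1435 CPM in Ctrl and 519 to 567 CPM in cKO. They include *Atoh1*, at 32.6, 32.0 and 30.9 CPM in Ctrl 1, 2 and 3 and 0.577, 0.261 and 0.249 CPM in cKO 1, 2 and 3 (log2 fold change -6.40, adjusted p = 8.85e-08), and *Barhl1* (-2.59, adjusted p = 3.79e-08). Of 8 granule neuron markers, 5 were called lower, led by *Neurod1* (-1.16) and *Nhlh1* (-1.78), and the summed level was 2766 to 2808 CPM in Ctrl and 2139 to 2330 CPM in cKO. These levels moved in the direction of *Hey1* and *Dll3*, and their part in those differences was not tested.

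Of 12 markers of radial glia, Bergmann glia and astroglia, 4 were called higher and 0 lower, 11 had a log2 fold change above 0, and the median was 0.46. Their summed level was 4856 to 4969 CPM in Ctrl and 6424 to 6878 CPM in cKO, and *Gdf10* of Bergmann glia (1.18) and *Gfap* (1.42) led them. Of 6 Purkinje cell markers 3 were called higher, with summed levels of 1108 to 1186 CPM in Ctrl and 1573 to 1905 CPM in cKO, among them *Skor2* (0.78) and *Car8* (0.63). Of 7 markers of the oligodendrocyte lineage 5 were called higher, with summed levels of 502 to 538 CPM and 658 to 704 CPM, led by *Mbp* (0.69) and *Sox10* (0.97), while *Pdgfra*, a marker of the progenitors of this lineage, had a log2 fold change of -0.45 (adjusted p = 3.07e-04), under the fold threshold. These summed levels moved in the direction of *Dll1*, *Notch1* and *Notch3*. So did the summed levels of GABAergic progenitors, mural cells, microglia and meninges, given below, although 2 of the 8 mural markers went the other way. The part of any of these lists in those differences was not tested. Of 6 markers of GABAergic progenitors 1 was called lower (*Ptf1a*, -1.18), and the summed level was 235 to 241 CPM in Ctrl and 301 to 308 CPM in cKO. *Pax2* (0.46, adjusted p = 1.70e-04) and *Kirrel2* (0.47, adjusted p = 2.12e-04) were under the fold threshold. At an adjusted p under 0.01 without that threshold, 3 of the 6 were higher (background 6.55%) and 1 was lower (background 7.24%).

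None of 8 endothelial markers was called by edgeR or DESeq2 and 1 had an unadjusted p under 0.05, *Kdr* (-0.23, adjusted p = 0.0371), with a median of -0.11 and a summed level of 376 to 419 CPM in Ctrl and 366 to 382 CPM in cKO. Of 8 mural cell markers 1 was called higher, *Vtn* (0.69), and DESeq2 called 2. *Myh11* (1.13, adjusted p = 0.0121) and *Acta2* (0.82, adjusted p = 0.0264), genes of smooth muscle, were not called by edgeR, and the list had a median of 0.17 and summed levels of 314 to 347 CPM and 358 to 381 CPM. *Vtn* was at 56.5 to 63.1 CPM in Ctrl and 87.7 to 99.5 CPM in cKO. The mural marker with the highest level, *Rgs5*, was at 140 to 164 CPM in Ctrl and 131 to 148 CPM in cKO (-0.14, adjusted p = 0.178). *Abcc9* was likewise below 0 (-0.18, adjusted p = 0.235). Of 6 markers each, microglia had 1 called higher (*C1qa*, 0.59; summed 71.2 to 75.7 and 90.7 to 104 CPM) and meninges 2 (*Col1a1*, 0.85, and *Col1a2*, 0.77; summed 389 to 415 and 572 to 687 CPM). Of 6 choroid plexus markers, *Otx2* was called lower (-1.16), the other 5 had log2 fold changes above 0, from 0.74 for *Folr1* to 1.63 for *Kcne2*, none of them called, the median was 1.18, and the summed level was 128 to 196 CPM in Ctrl and 33.5 to 773 CPM in cKO. None of 5 erythrocyte markers was called by edgeR or DESeq2 or had an unadjusted p under 0.05, with summed levels of 98.6 to 106 CPM and 82.2 to 117 CPM. None of 8 markers of the neighbouring midbrain and hindbrain passed the filter on low counts, their summed level was 1.11 to 1.56 CPM in Ctrl and 1.5 to 3.74 CPM in cKO, *Hoxb2* and *Hoxb3* had at most 3 counts in every library, and *Foxa1* had 0.

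**Figure D4:**
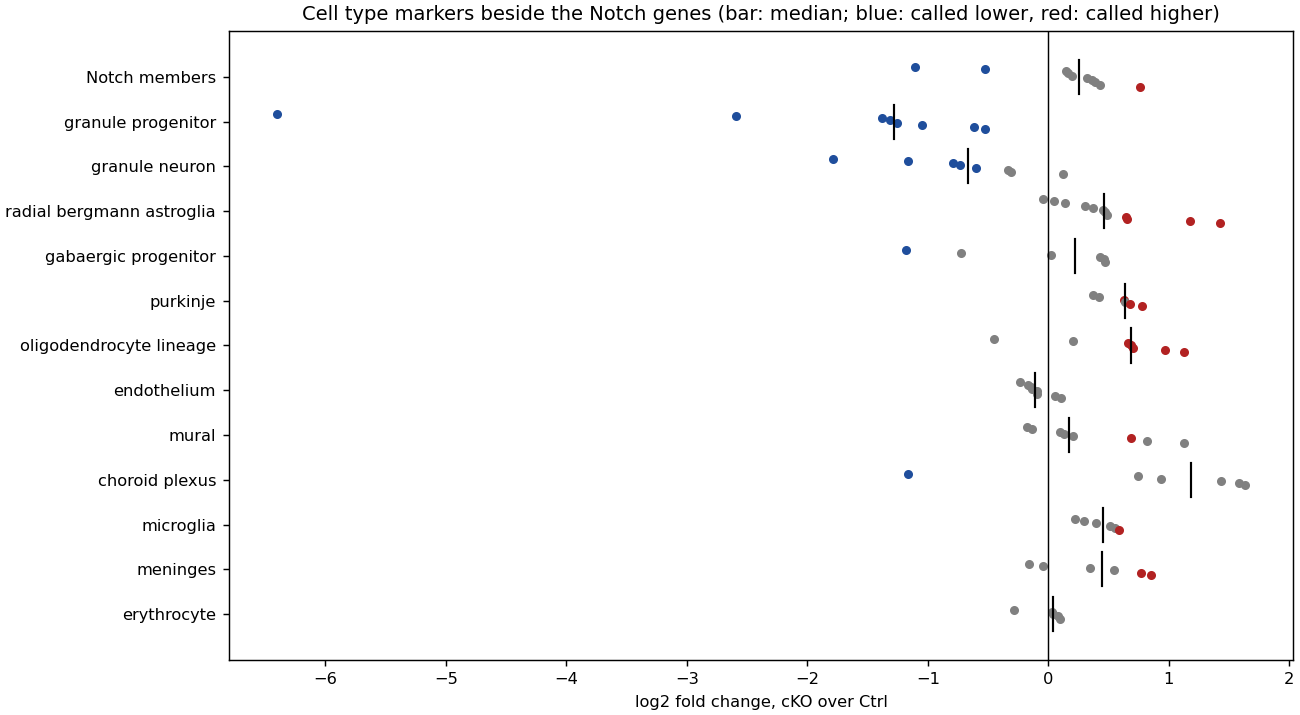
Log2 fold change in cKO over Ctrl of the 10 Notch genes and of the markers of each cell type. Each point is a gene, blue where called lower and red where called higher, and the black bar is the median of the list. The median was -1.28 for granule neuron progenitors, -0.67 for granule neurons, 0.46 for radial, Bergmann and astroglia and 0.63 for Purkinje cells, beside 0.26 for the Notch genes.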

How the data were processed

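Cerebellar mRNA was measured in 6 samples from postnatal day 1, grouped by their titles into 3 Ctrl and 3 cKO. The authors deposited raw counts per gene and FPKM values. Per the labels and the study's methods, the authors trimmed and filtered the reads, mapped them to mm10 with HISAT2 2.0.5 and made the counts with featureCounts 1.5.0-p3. The authors derived FPKM from these counts and gene length. Which annotation release was used and whether strand was considered are not given in the sources used here, so overlapping genes may share reads.

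All genes were fitted with edgeR 4.0.16 in R 4.3.3 (filterByExpr, TMM, glmQLFit, glmQLFTest), with Benjamini-Hochberg adjustment over the 17505 genes tested and the study's thresholds of 0.01 for adjusted p and 0.5 for log2 fold change. The 95% intervals use the degrees of freedom of the test. Shares of FPKM were compared by exact permutation of the 6 libraries. Same-group libraries differed by more than sampling noise (chi-square per gene 3.63 to 10.0), so none was treated as a copy. Precision is limited by 3 libraries per group, whose totals are given in the report. The fits were tested on simulated counts.

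Named were the 10 members, *Tox3*, *Atoh1*, the called genes or otherwise up to 3 of the smallest p in each role group of the pathway list, up to 2 of the smallest p in each marker list, markers with at most 3 counts in every library, genes overlapping a member, and the 3 genes nearest to the leading member of each role. *Rbpj*, *Rfng*, *Dtx1*, *Itch*, *Nrarp*, *Mib1*, *Hes2*, *Hes3*, *Hes7*, *Hey2*, *Heyl*, *Ptf1a*, *Pdgfra*, *Acta2*, *Rgs5*, *Abcc9*, *Folr1*, *Kcne2*, *Ttr*, *Ddx3y* and *Xist* fall outside this rule and were chosen after their values were seen. The members and lists were chosen with earlier results of these data known. Promoter sequences are from RefSeq on GRCm38.p6. Alternatives were DESeq2 1.42.0, other normalizations and filters, the replicate number as a block, the level of Y-linked genes as a covariate, each library left out, limma 3.58.1 on log2(FPKM + 1) and log2(FPKM + 0.1), and other thresholds. The split by Y-linked reads was chosen after seeing the data.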

Additional observations from a re-analysis of the deposited data

How the results depend on the processing

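*Hey1* kept its call in 17 of 17 alternatives and *Dll1* in 16 of 17, counting the looser rule that must keep any called gene. With DESeq2, other normalizations and other filters, the counts of called Notch genes stayed at 2 lower and 1 higher. With log2(FPKM + 1) the members called lower fell to 1, the other pathway genes called were 2 lower and 1 higher, and 330 of all genes were called higher. With the level of Y-linked genes as a covariate, 1 other pathway gene was called higher. At an adjusted p under 0.05 without a fold threshold, 3 members were higher, 14 other pathway genes were lower and 8 higher, and of all genes 2252 were lower and 2136 higher. Tested against a log2 fold change of 0.5 itself, 1 member was lower and 0 higher (*Dll1*, adjusted p = 0.0438), and 0 other pathway genes were called in either direction. DESeq2 called 4 and 2 of these other genes. In the test against 0, 29 of 51 had an unadjusted p under 0.05, with the background given for *Nrarp*. Against 0.5, 145 of all genes were lower and 30 higher.

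Leaving out 1 library at a time gave 1 to 2 members lower and 1 to 2 higher, 3 to 5 other pathway genes lower and 1 to 2 higher, and 492 to 778 of all genes lower and 349 to 569 higher, the 349 without cKO 3. The second member called higher was *Hes5* without cKO 2. The difference in the *Jag1* share ranged from -0.985 to 0.308 percentage points, that in the *Notch1* share from 0.523 to 1.13 and that in the *Hes1* share from 7.34 to 13.7. Within the libraries without Y-linked reads, a split chosen after seeing the data, the log2 difference of *Hes5* was -0.28. The cause of these changes was not tested.

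The deviations of same-numbered libraries correlated at 0.265, 0.295 and -0.163, and cKO 3 correlated best with Ctrl 1 (0.284). Correlations were positive between libraries alike in Y-linked reads and negative between the others. They therefore cannot show whether the replicate numbers mark pairs. With the replicate number as a block, 2 members were lower and 1 higher, 4 other pathway genes lower and 2 higher, and 696 of all genes lower and 561 higher. With 3 libraries per group, a difference such as that of *Hes5* was within the spread of the cKO libraries.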
